A study of Triticum aestivum with 3 samples.

Results

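The degradome reads assigned to the microRNA family miR164 were examined in leaves of wheat (Triticum aestivum) seedlings after 2 days of treatment. The treatments were DTT together with TUDCA (DTT+TUDCA), DTT alone, and an untreated control, with 3 independent biological replicates of each per the series' design text. DTT (dithiothreitol) is a reductant that breaks disulphide bonds and so causes misfolded proteins to build up in the endoplasmic reticulum. TUDCA (tauroursodeoxycholic acid), a bile acid, serves as a chemical chaperone that eases this stress. The purpose stated for the series is to find targets of the microRNAs that take part in it. The labels give neither the wheat cultivar nor the doses. The leaf label was not checked against marker genes, because the transcripts are not annotated here.

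Every line whose small RNA name names the family itself, as miR or MIR with that number and no further digit, was taken. These were 312 of 12450 pairs of a small RNA and a transcript, with 21 small RNA names on 178 transcripts. Lines that hold the same reads, under transcripts or small RNA names that are counted alike, were merged into 102 degradome signals of 4574 in the whole series. Of the 102 signals, 23 carried mature names (tae-miR164, ata-miR164a-5p and the like) and 79 carried precursor-arm names (MIR164 followed by -p5 or -p3).

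MicroRNAs of the miR164 family pair with messenger RNAs of NAC transcription factors, and the Argonaute complex then slices the messenger within the paired site. In Arabidopsis the family is known for limiting CUP-SHAPED COTYLEDON genes at organ boundaries and a NAC regulator of leaf senescence. Degradome sequencing reads RNA pieces from a 5′ end that bears a monophosphate, the kind of end that slicing leaves on the downstream piece. The tables used here give neither the cleavage position nor the amount of each transcript. Whether a read arose by slicing, or moved with the amount of its transcript, was therefore not tested. No transcript named below is annotated in the sources used here, so none is called a NAC gene. In bulk leaf RNA, fewer cells of a type and less RNA per cell cannot be told apart.

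The libraries held 12544241 to 13006162 reads in DTT+TUDCA, 12525611 to 12895432 in DTT and 11253643 to 12548651 in the control. Values are given as raw reads, or as reads per 10000000 library reads (RP10M). The 102 signals held 2915 reads over the 9 libraries, 5.27% of the 55312 reads in all signals. Depth per signal was low, as 53 of the 102 had 3 reads or fewer (52.0%, against 61.6% of all signals) and 24 had 10 or more. In 11 of the 23 signals with a single read, transcripts of several chromosome arms had been merged, and these may hold different reads.

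The mature names covered 122 pairs and 29 transcripts, and the precursor-arm names 190 pairs and 149 transcripts. Not 1 transcript was listed under both kinds of name. Reads were split almost evenly, with 1524 (52.3%) under mature names and 1391 (47.7%) under precursor-arm names. A pair of signals held 64.7% of all family reads. These were zma-MIR164h-p5_2ss4CG17CG_1 on the 6AL transcript Traes_6AL_2E1CB2A66, with 961 reads, and tae-miR164 on Traes_7DL_BDD45DB24 and Traes_7AL_BFBB2AD1E, with 925 reads. They ranked 10 and 12 by reads among all 4574 signals. Below them the mature names still held 3 signals of 112 to 199 reads, while the next precursor-arm signal had 33.

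**Figure D1:**
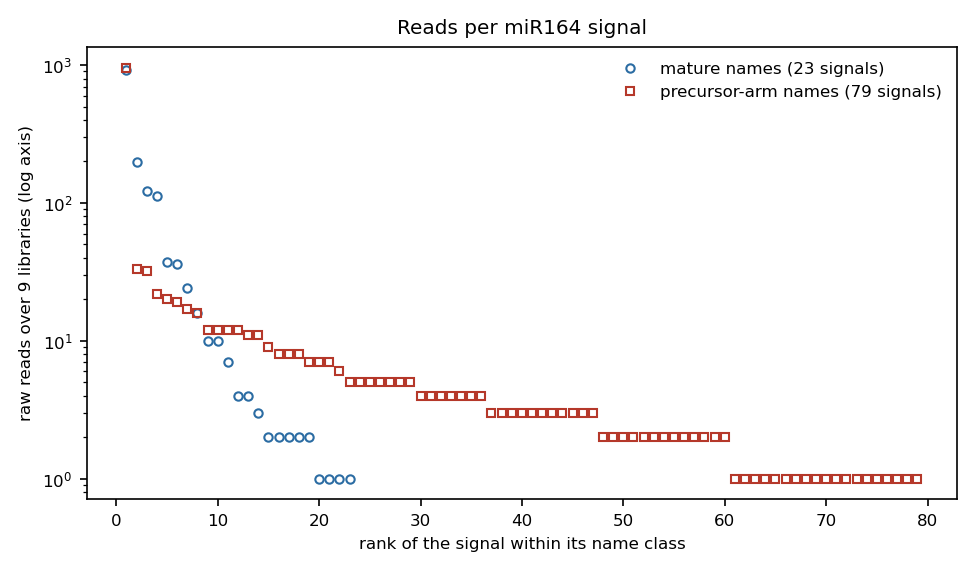
Raw reads over the 9 libraries (log axis) of each miR164 signal, against its rank within its name class, for 23 signals with mature names (circles) and 79 with precursor-arm names (squares). Each class has a single signal above 199 reads, and the next one has 33 reads in the precursor-arm class and 199 in the mature class.

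Reads under mature names were mostly listed under names marked 5p or with no arm mark. The 5p strand is the arm that carries the regulatory miR164 sequence. The 8 names marked 5p or with no arm mark had 14 signals with 1457 reads on 19 transcripts, and the 6 names marked 3p had 9 signals with 67 reads on 10 other transcripts. In the 5 tested 5p signals, tae-miR164 stood beside bdi-miR164a-5p_R+1, cln-miR164 and ata-miR164a-5p with identical counts on each transcript, so that the reads of these names cannot be told apart there. In 4 of the 5, ata-miR164b-5p_R+2 was a further such name, but it was not listed on the 7AL and 7DL pair with 925 reads.

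Wheat carries A, B and D genomes, and some signals joined transcripts on matching chromosome arms whose lines were identical or nearly so. Such lines were joined because their counts were alike, and other signals were listed on a single transcript. The signal of 199 reads was listed with equal counts on 5AS, 5BS and 5DS (Traes_5AS_E5FD82E36, Traes_5BS_9F043AE17 and Traes_5DS_511F35A45), and that of 123 reads with equal counts on 7AL, 7BL and 7DL (Traes_7AL_628A69311, Traes_7BL_F1A0270C6 and Traes_7DL_1E343B6E6). The authors' second read number equals the raw count divided by 3 for both. These reads therefore cannot be assigned to 1 genome. On the 7AL and 7DL pair the lines differed slightly, with 925 reads on 7DL and 909 on 7AL. If the authors' second number counts a read shared by both transcripts at 0.5 for each, 898 reads were shared, 27 were on 7DL alone and 11 on 7AL alone. The signal on Traes_7DL_91CFE828F, with 112 reads, had a divisor of 1. The 6AL signal had a median divisor of 2 although it was listed on a single transcript, and the second place was not identified in the tables.

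Some mature names carry L+1, which by the usual reading of such names marks a base added at the 5′ end. On the same transcripts these names held far fewer reads than tae-miR164. Whether their reads were among those of tae-miR164 was not tested. On the 7AL and 7DL pair the L+1 names had 24 reads, 2.59% of the 925 on the 7DL line. On the 5AS, 5BS and 5DS set they had 10 reads against 199 (5.03%), and on the 7AL, 7BL and 7DL set 7 against 123 (5.69%).

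The family was first compared between DTT and the control, to see which of its signals differed under the reductant. The MIR164h-p5 signal on 6AL rose, and 4 tested mature signals did not pass. The 6AL signal had 255, 172 and 71 raw reads in the DTT libraries and 31, 37 and 23 in the control libraries. All DTT libraries lay above all control libraries, but the DTT libraries differed by more than 3-fold among themselves. Groups did not overlap in 21.8% of all signals tested in this comparison. The means were 131.6 ± 73.9 RP10M in DTT and 25.0 ± 4.75 in the control (SD, n = 3 each), a ratio of 5.26. The coefficient of variation was 56.1% in DTT, where counting error alone gives 7.76%, and 19.0% in the control, where it gives 18.2%. In edgeR's quasi-likelihood test the log2 fold change was 2.39 (SE 0.48, adjusted p = 0.000212), which ranked 1 by p among 156 tested signals. Relative to the median of all tested signals, at -0.08, it was 2.46. Of all tested signals 3.21% were called. The call was lost without control replicate 1 (adjusted p = 0.0665), without control replicate 3 (0.367) and by limma on the authors' signal (0.162), and adjusted p ran from 6.68e-08 to 0.367 over all alternatives.

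The tae-miR164 signal on 7AL and 7DL, the strongest of the mature names, had 56, 146 and 80 reads in DTT and 89, 124 and 88 in the control. The groups overlapped, and the DTT libraries held both the lowest and the highest value. Its means were 74.4 ± 37.6 RP10M in DTT and 83.1 ± 15.3 in the control (log2 -0.16, SE 0.45, adjusted p = 0.886). Reads on 5AS, 5BS and 5DS were 28, 22 and 10 in DTT and 20, 12 and 27 in the control. On the 7AL, 7BL and 7DL set they were 16, 14 and 7 in DTT and 16, 5 and 12 in the control, and on Traes_7DL_91CFE828F 6, 20 and 9 in DTT and 8, 10 and 11 in the control. The groups overlapped in all 3 of these mature signals, which had log2 fold changes of -0.06 (5AS, 5BS and 5DS), 0.09 (7AL, 7BL and 7DL) and 0.19 (Traes_7DL_91CFE828F), with SEs of 0.49 to 0.65 and adjusted p of 0.912 to 0.962. With SEs of this size, moderate changes of single mature signals were not detectable. Among the 5 miR164 signals in the test 1 was higher and 0 were lower, where 2.56% of all 156 signals were higher and 0.641% lower. An unadjusted p under 0.05 was found for 1 of the 5, against 16.7% of all signals. The median log2 fold change of the 5 was 0.09, against -0.08 over all 156.

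**Figure D2:**
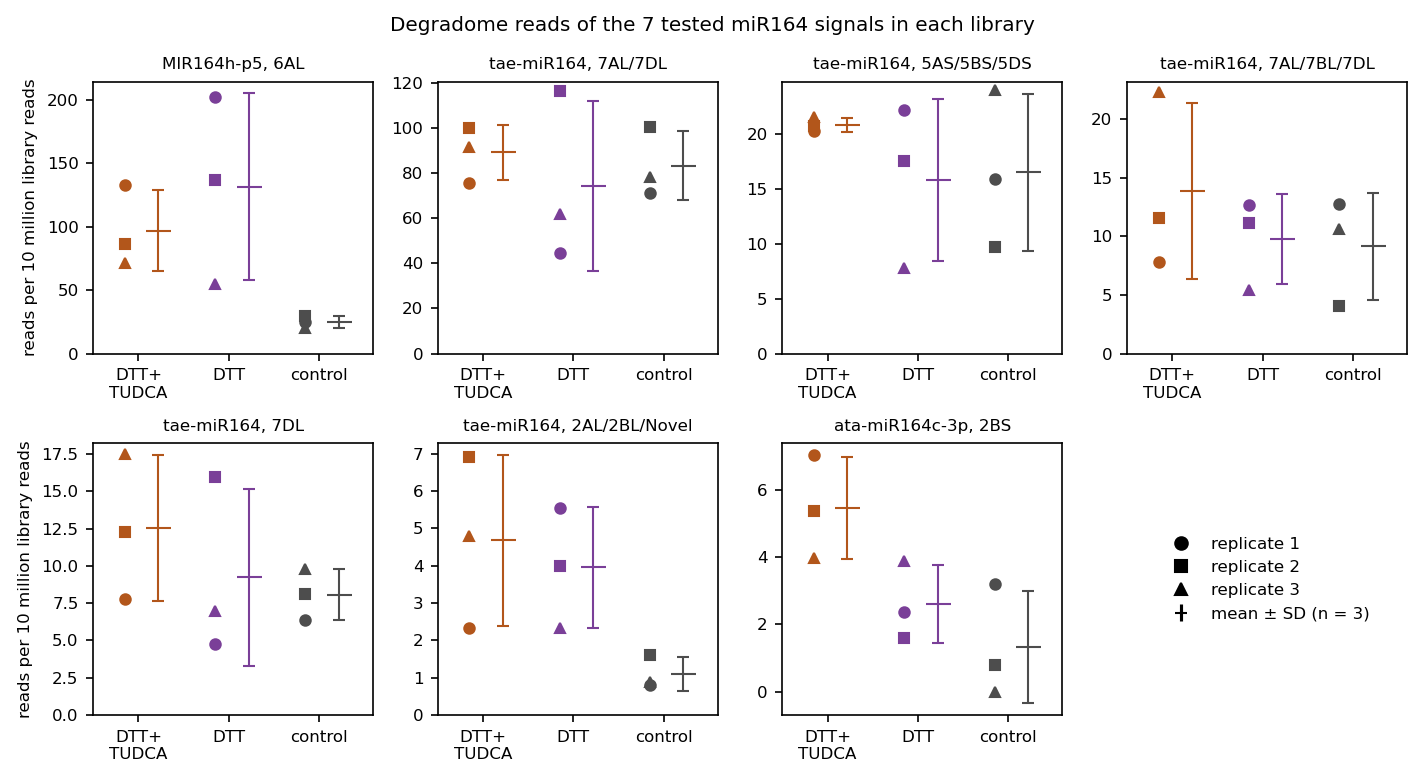
Reads per 10000000 library reads (RP10M) (y axis, separate scale in each panel) of the 7 miR164 signals that entered a test, in DTT+TUDCA, DTT and control libraries. Points are libraries, with a shape for each replicate number, and the bar beside them is the mean ± SD (n = 3). In the MIR164h-p5 panel both treated groups lie above all control libraries, while in the panel of tae-miR164 on 7AL and 7DL the groups overlap.

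DTT+TUDCA was then compared with the same control libraries, to see which signals differed when the chaperone accompanied the reductant. Again the MIR164h-p5 signal on 6AL rose and no mature signal passed. It had 170, 112 and 90 raw reads in DTT+TUDCA and 31, 37 and 23 in the control. Every DTT+TUDCA library exceeded every control library by more than 2-fold. The means were 96.9 ± 31.9 RP10M in DTT+TUDCA and 25.0 ± 4.75 in the control (SD, n = 3 each), a ratio of 3.87. The log2 fold change was 1.95 (SE 0.35, adjusted p = 2.04e-05 by edgeR), or 1.64 relative to the median of all 166 tested signals, which itself lay at 0.30 by library reads and at 0.09 after TMM scaling. It ranked 2 by p. The call held under all 15 alternatives, with adjusted p from 5.24e-07 to 0.0148. Of the 6 tested miR164 signals 1 was higher and 0 lower, where 9.64% of all signals were called, 8.43% higher and 1.2% lower. An unadjusted p under 0.05 was found for 1 of the 6, against 19.9% of all signals. The median log2 fold change of the 6 was 0.61, which includes ata-miR164c-3p on 2BS, a signal that passed the filter on low counts through its DTT+TUDCA libraries.

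None of the 5 tested mature signals passed in this comparison. For tae-miR164 on 7AL and 7DL the reads were 97, 130 and 115 in DTT+TUDCA and 89, 124 and 88 in the control (log2 0.10, SE 0.31, adjusted p = 0.836), below the median of all signals. This value was -0.10 under TMM and -0.13 by DESeq2 with its own size factors. The 5AS, 5BS and 5DS signal had 26, 27 and 27 reads in DTT+TUDCA and 20, 12 and 27 in the control (log2 0.34, adjusted p = 0.675). The 7AL, 7BL and 7DL signal had 10, 15 and 28 in DTT+TUDCA and 16, 5 and 12 in the control (log2 0.60, adjusted p = 0.521). The signal on Traes_7DL_91CFE828F had 10, 16 and 22 in DTT+TUDCA and 8, 10 and 11 in the control (log2 0.63, adjusted p = 0.520). In all 3 of these the groups overlapped in RP10M. The signal of ata-miR164c-3p on Traes_2BS_87E3BCB91, of the strand opposite the regulatory one, had 9, 7 and 5 reads in DTT+TUDCA and 4, 1 and 0 in the control. It passed the filter only through the DTT+TUDCA libraries, where it is high, so nothing is read from its direction or from its groups not overlapping, which was also the case for 22.9% of all tested signals. Its log2 fold change was 1.92 (SE 1.05, adjusted p = 0.320), and it was 3.42 without control replicate 1 and 1.40 without control replicate 3.

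**Figure D3:**
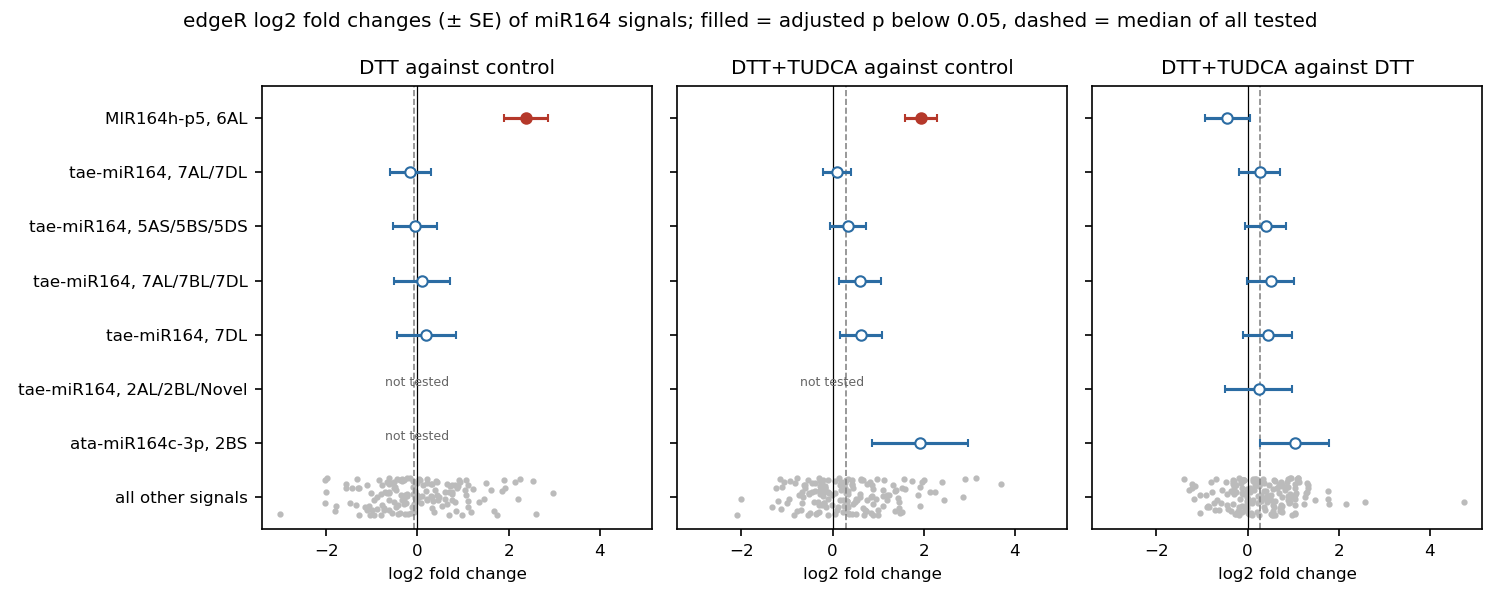
Log2 fold changes (x axis) with their SE from edgeR for the tested miR164 signals, in DTT against control, DTT+TUDCA against control and DTT+TUDCA against DTT. Filled points passed an adjusted p of 0.05, grey points are all other tested signals and the dashed line is the median of all tested. The MIR164h-p5 signal on 6AL is filled at 2.39 and 1.95 in the comparisons with the control and open at -0.44 between the treatments.

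The test of TUDCA added to DTT left 0 of 7 miR164 signals below an adjusted p of 0.05 by edgeR. None had an unadjusted p under 0.05 (0 of 7), and both DESeq2 fits and limma also called 0. Of all 187 tested signals 1.07% were called, and 6.95% had an unadjusted p under 0.05. The MIR164h-p5 signal on 6AL had 170, 112 and 90 reads in DTT+TUDCA and 255, 172 and 71 in DTT, with overlapping groups. The log2 fold change was -0.44 (SE 0.49, adjusted p = 0.835), and it was 0.011 without DTT replicate 1, the library with the highest value. For tae-miR164 on 7AL and 7DL the reads were 97, 130 and 115 in DTT+TUDCA and 56, 146 and 80 in DTT (log2 0.26, SE 0.44, adjusted p = 0.938), equal to the median of all tested signals, and the log2 fold change was -0.076 under TMM. The other 5 had log2 fold changes between 0.24 and 1.03, the highest that of ata-miR164c-3p on 2BS (SE 0.76, adjusted p = 0.770). That signal had 9, 7 and 5 reads in DTT+TUDCA and 3, 2 and 5 in DTT. Its lowest DTT+TUDCA library (3.99 RP10M) lay just above its highest DTT library (3.88 RP10M). Groups did not overlap in 15.5% of all tested signals. As against the control, ata-miR164c-3p passed the filter only through its DTT+TUDCA libraries, where it is high. Nothing is therefore read from its direction or from its groups not overlapping. Both comparisons with the control share the control libraries, so their values for 6AL are not independent of each other.

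The tae-miR164 signal on Traes_2AL_57BF37A86, Traes_2BL_6AEE8AC28 and Novel12907 passed the filter on low counts only between the treatments. It had 3, 9 and 6 reads in DTT+TUDCA, 7, 5 and 3 in DTT and 1, 2 and 1 in the control. Every treated library was above every control library. Over all signals tested against the control, groups did not overlap in 22.9% for DTT+TUDCA and 21.8% for DTT. The signal on 2AL and 2BL was not among those, and it entered a test only through treated libraries, where it is high. Nothing is therefore read from its groups not overlapping. Without the filter, edgeR gave this signal a log2 fold change of 1.99 for DTT+TUDCA against control (SE 1.01, unadjusted p = 0.0481, adjusted p = 0.521). For DTT against control edgeR gave 1.75 (SE 1.15, unadjusted p = 0.127, adjusted p = 0.512). At 4 reads in the control, neither value passed after adjustment, and whether the signal changed cannot be told.

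A ratio of the leading signals does not depend on library reads. Reads of MIR164h-p5 on 6AL divided by reads of tae-miR164 on 7AL and 7DL gave 1.75, 0.862 and 0.783 in DTT+TUDCA, 4.55, 1.18 and 0.888 in DTT and 0.348, 0.298 and 0.261 in the control. All treated libraries lay above the control, and DTT replicate 1, with the most 6AL reads, had the fewest tae-miR164 reads. As a share of all reads in signals, 6AL held 1.78% ± 0.735 in DTT+TUDCA, 2.64% ± 1.08 in DTT and 0.563% ± 0.0997 in the control. The tae-miR164 signal held 1.60% ± 0.133 in DTT+TUDCA, 1.62% ± 0.796 in DTT and 1.86% ± 0.222 in the control. No test was made on these ratios and shares, since both signals were chosen with their values known.

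Summed over all 102 signals, the family stood at 296.1 ± 12.7 RP10M in DTT+TUDCA, 292.3 ± 88.6 in DTT and 185.6 ± 12.2 in the control (SD, n = 3 each). Without the 6AL signal the sums were 199.3 ± 19.4 in DTT+TUDCA, 160.7 ± 38.7 in DTT and 160.6 ± 10.7 in the control. The 6AL signal thus accounted for the whole difference between the DTT and control means. Against the control, DTT+TUDCA kept a higher sum without it, with the lowest DTT+TUDCA library at 178.0 and the highest control library at 167.4. The sum over all signals of the series was also higher, at 5552.9 ± 420.1 RP10M in DTT+TUDCA and 4452.1 ± 354.0 in the control. There the lowest DTT+TUDCA library, at 5076.3, likewise lay above the highest control library, at 4740.6. The higher sum without 6AL is therefore not read as a trait of miR164. All tested signals had a median of 0.30 on the log2 scale in that comparison, and no test was made on the sums. Mature names summed to 158.8 ± 26.3 in DTT+TUDCA, 123.4 ± 45.9 in DTT and 123.8 ± 10.6 in the control, and the ranges of the groups overlapped. The share of family reads under precursor-arm names was 46.0% ± 10.9 in DTT+TUDCA, 56.6% ± 12.9 in DTT and 33.3% ± 2.28 in the control. In each treatment group the lowest library, at 38.2% for DTT+TUDCA and 48.5% for DTT, exceeded the highest control library, at 35.5%. This share includes the 6AL signal. Without it the precursor-arm names summed to 40.4 RP10M in DTT+TUDCA, 37.3 in DTT and 36.8 in the control.

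**Figure D4:**
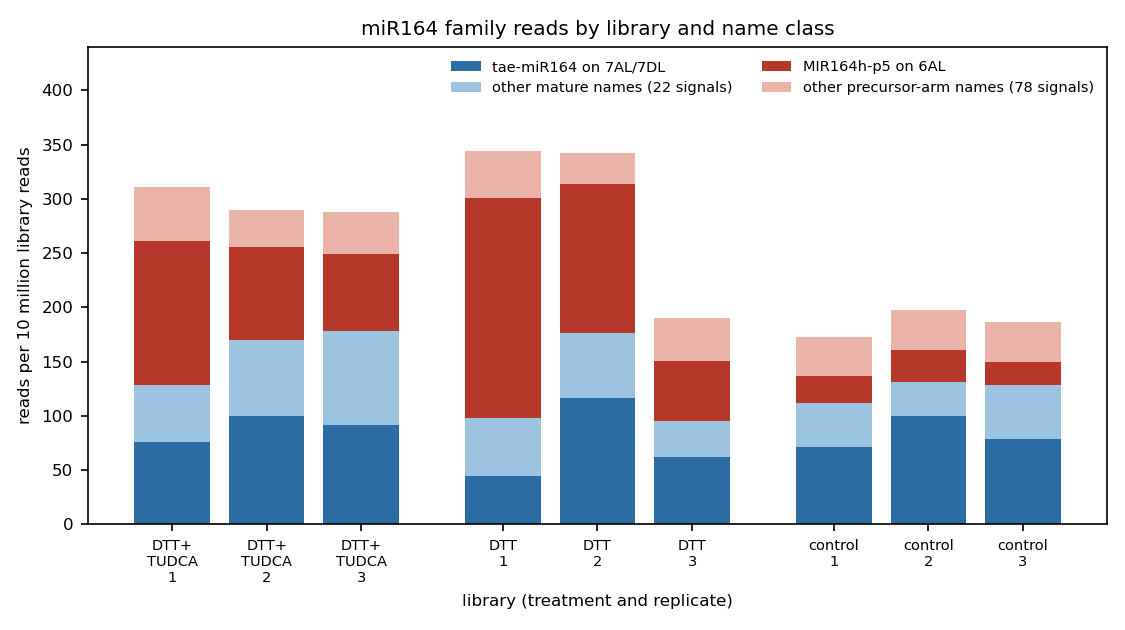
Reads per 10000000 library reads (RP10M) of the miR164 family in each library, stacked by tae-miR164 on 7AL and 7DL, the other mature names, MIR164h-p5 on 6AL and the other precursor-arm names. The red segment of MIR164h-p5 on 6AL is shortest in the control libraries (20.4 to 29.9) and longest in DTT replicate 1 (202.4), while the other precursor-arm names stay between 28.7 and 49.2 in all libraries.

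The zma-MIR164h-p5 names were listed on 81 transcripts and gave 41 signals, of which 6AL alone had more than 33 reads. The names ending in _1 and _2 had identical counts on all 41 transcripts that both list. The 40 signals other than 6AL held 271 reads. Over all 78 precursor-arm signals other than 6AL, the sums were 40.4 ± 7.90 RP10M in DTT+TUDCA, 37.3 ± 7.71 in DTT and 36.8 ± 0.481 in the control, which differed by less than the spread between treated libraries. The next ones by reads were on Traes_5AL_E4C37F0BC, with 1, 4 and 6 reads in DTT+TUDCA, 1, 3 and 9 in DTT and 4, 3 and 2 in the control, and on Traes_7DS_13E1CAD60, with 4, 6 and 3 in DTT+TUDCA, 4, 3 and 5 in DTT and 4, 0 and 3 in the control. Neither set the groups apart. On Novel00870 and Novel07550 the counts were 0, 0 and 1 in DTT+TUDCA, 0 in every DTT library and 0, 7 and 4 in the control. On TRAES3BF046400050CFD_g they were 6, 1 and 0 in DTT+TUDCA, 2, 0 and 3 in DTT and 0 in every control library. On Traes_7DL_F21839F9C they were 1, 3 and 0 in DTT+TUDCA, 0 in every DTT library and 1, 4 and 2 in the control. On Traes_5BL_7EDE873F5 they were 0 in all DTT+TUDCA and DTT libraries and 4, 3 and 1 in the control. These 4 low-count signals were chosen after their values were seen, and none passed the filter on low counts. A count of 0 over the 3 libraries of a group allows up to 3 reads, or 0.782 RP10M in DTT+TUDCA, 0.789 in DTT and 0.829 in the control, for counting error only.

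Other precursor-arm names were sparse. The 11 ata-MIR164b-p3 signals held 69 reads, the 12 of sbi-MIR164a-p5_2ss3CT18AC 42, the 7 of the wheat name tae-MIR164-p3 20, and those of aly-MIR164b-p3 and gma-MIR164g-p3_2ss1CA18AT 14 each. The 17 mature signals outside the tests held 47 reads in DTT+TUDCA (10, 17 and 20), 29 in DTT (8, 12 and 9) and 16 in the control (2, 8 and 6). In RP10M the DTT libraries overlapped both other groups, and a single signal gave 15 of the 47 reads. No such sum was made for low-count signals of other families, so nothing is read from it. The number of miR164 signals seen in a library was 41 to 42 in DTT+TUDCA, 31 to 34 in DTT and 28 to 30 in the control, and these groups did not overlap. Over all families 1503.3 ± 83.0 signals were seen in DTT+TUDCA, 1275 ± 159 in DTT and 1190.3 ± 44.8 in the control. There too every DTT+TUDCA library (1414 to 1578) lay above every control library (1163 to 1242), while DTT (1117 to 1435) overlapped both. Of all signals seen, miR164 made up 2.78% ± 0.186 in DTT+TUDCA, 2.59% ± 0.320 in DTT and 2.44% ± 0.166 in the control, with no test made. Reads in a single treatment were found for 23 signals in DTT+TUDCA, 15 in DTT and 10 in the control, none with more than 8 reads. The same count was not made over all families, where more signals were likewise seen in DTT+TUDCA libraries. These counts are therefore not read as a trait of miR164.

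Among 203 tested signals of other families, those whose reads followed the 6AL signal most closely over the 9 libraries were named by Pearson's r on log2(RP10M + 1). They were aly-MIR163-p5_2ss8GA18GC on Traes_7BS_1A6D16C6B (r = 0.942), aly-miR169n-3p on Traes_1BL_12E87565E (0.909), gma-MIR5368-p5_1ss2TC_1 on Traes_6AL_B57DC279C (0.897), aly-miR156a-5p_R+1_1ss20CT on TRAES3BF084600040CFD_g (0.887) and tae-MIR396-p3 on Traes_5BL_CD2F351BC (0.863). The MIR163-p5 signal, with 1155 reads the most abundant of these 5, averaged 118.0 ± 11.8 RP10M in DTT+TUDCA, 141.5 ± 50.4 in DTT and 45.8 ± 7.98 in the control. Within the family r with 6AL was 0.802 for the signal on 2AL and 2BL and 0.528 for ata-miR164c-3p on 2BS. It was 0.298 for the 5AS, 5BS and 5DS signal, 0.233 for the 7AL, 7BL and 7DL signal and 0.054 for Traes_7DL_91CFE828F. For tae-miR164 on 7AL and 7DL it was -0.18. The miR169n-3p, MIR5368-p5 and MIR396-p3 signals had only 30, 45 and 50 reads. Their control means were 0.80, 0.56 and 1.10 RP10M, so they passed the filter only through treated libraries. So did the signal on 2AL and 2BL and that of ata-miR164c-3p on 2BS. Such entry favours a high r with 6AL, so nothing is read from their values. These correlations describe 9 libraries that share 3 treatments and their depth.

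The microRNA families miR160 and miR167, which target auxin response factors, and miR319, which targets TCP factors, were set beside miR164. The leading miR319 signals also carry names of its relative miR159. For DTT against control, 0 of 5 miR160, 0 of 3 miR167 and 0 of 2 miR319 signals passed edgeR's adjusted threshold, and 2, 1 and 0 had an unadjusted p under 0.05. Neither DESeq2 fit nor limma called any of them. Their median log2 fold changes were -0.28, -1.05 and 0.07. For DTT+TUDCA against control, 0 of 4, 0 of 3 and 0 of 2 were called by the same tools, with 1, 0 and 0 at an unadjusted p under 0.05 and medians of -0.19, -0.09 and -0.18. For DTT+TUDCA against DTT, 0 of 4, 0 of 3 and 0 of 1 were called, with 0, 1 and 0 at an unadjusted p under 0.05 and medians of 0.41, 1.05 and 0.25. Over all tested signals, edgeR called 3.21% for DTT against control, 9.64% for DTT+TUDCA against control and 1.07% between the treatments. An unadjusted p under 0.05 was found by edgeR for 16.7%, 19.9% and 6.95% of them. At these shares and with so few signals, 0 called is not read as a lack of response. The leading miR160 signal (tae-miR160 on Traes_1AL_147CF243C) had 2597 reads and the leading miR167 signal (tae-miR167b_R+1_2ss9AC21AC on Traes_7DL_C89614A4D) 1029, against 961 and 925 for the leading miR164 signals. Whether the families differ in their response was not tested.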

How the data were processed

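Degradome libraries of 3 treatments with 3 libraries each were analysed from 3 tables, 1 for each pair of treatments. Per the file headers, the deposited values are raw read counts for each pair of small RNA and transcript, a second number called normalized (an expected count, which is the raw count over a divisor that is never below 1), and a signal called TPB. The deposited signal equals the normalized number times 1000000000 over a whole number, taken as the library's reads. The deposited log2 ratio equals that of mean TPB and was not used. For the read mapper, the transcript set and the target caller: not given in the sources used here.

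Lines sharing a small RNA or a transcript were merged where their summed count differences came to 20% of the larger total or less, and the line with the most reads stood for the signal. Left out were 3 pairs with repeated lines within a table. The quasi-likelihood test of edgeR 4.0.16 in R 4.3.3 was run on raw counts in fits of 2 treatments, with library reads as library sizes. The filter (filterByExpr) asked for 10 reads in total. It also asked for the level of 5 reads at the median library size, in as many libraries as the smaller group has. Benjamini-Hochberg adjustment was made over all signals tested (threshold 0.05). The SE is the size of the log2 fold change over the square root of F. The script was tested on simulated data. Alternatives were TMM, DESeq2 1.42.0, limma 3.58.1 on log2(TPB + 1), no filter, other merging rules, 1 fit of all treatments, a replicate block and leaving out each library. Every signal that entered a test is named, and others with 5 reads or more may be. Also named are the 5 signals of other families most correlated with the called miR164 signal, and up to 2 leading signals of each family set beside it. The members, lists and tests were chosen with earlier results of these data known.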

Additional observations from a re-analysis of the deposited data

How the results depend on the processing

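Apart from the leading signals on 6AL and on 7AL and 7DL, no miR164 signal had more than 199 reads over 9 libraries. The count of called miR164 signals stayed at 1 for DTT against control except with no merging (2, the MIR164h names with the same reads), by limma (0) and over the fits without 1 library (0 to 1, with 0 without control replicate 1 or 3). For DTT+TUDCA against control it was 2 with no merging and 1 otherwise, and between the treatments it was 0 under all alternatives. The 6AL call of DTT against control was lost by limma at log2 2.20, and the log2 fold change was 1.94 to 2.76 without 1 library. With every listed line counted, precursor-arm shares were 16.8% in DTT+TUDCA, 22.7% in DTT and 10.5% in the control, and the total of DTT+TUDCA over control was 1.34-fold in place of 1.60-fold, because mature reads are listed under more names and transcripts. Over fits without 1 library, changes of direction occurred in signals that were not called. The ranges for DTT against control were -0.38 to 0.30 (5AS, 5BS and 5DS), -0.26 to 0.41 (7AL, 7BL and 7DL), -0.64 to 0.10 (7AL and 7DL) and -0.45 to 0.50 (Traes_7DL_91CFE828F). For DTT+TUDCA against control the range was -0.0028 to 0.26 (7AL and 7DL). For DTT+TUDCA against DTT the ranges were -0.15 to 0.56 (2AL and 2BL), -0.012 to 0.79 (7AL, 7BL and 7DL), -0.0023 to 0.74 (7AL and 7DL) and -0.81 to 0.011 (6AL). By DESeq2 with its own size factors, direction also turned for DTT against control on 5AS, 5BS and 5DS (0.038) and on 7AL and 7DL (0.051). For tae-miR164 on 7AL and 7DL it turned under TMM and that DESeq2 fit in DTT+TUDCA against control (-0.10 and -0.13) and against DTT (-0.076 and -0.13), and for 2AL and 2BL against DTT (-0.011 and -0.068). The cause was not tested. Deviations of same-numbered libraries correlated at -0.22 to 0.12, no more closely than those of different-numbered libraries, at -0.17 to 0.18. With counts this low, these correlations cannot tell whether the libraries were paired. With a replicate block, 1 signal was higher and 0 lower of all 156 for DTT against control, in place of 4 and 1, 17 and 1 of 166 for DTT+TUDCA against control, in place of 14 and 2, and 1 and 0 of 187 between the treatments, in place of 2 and 0, while the count of called miR164 signals was 1, 1 and 0 as before. Over all signals, DTT+TUDCA against control called 74 higher and 12 lower of 1043 with no merging and 27 and 2 of 184 with merging at 5%, while DTT against control called 1 and 0 of 3592 with no filter, 2 and 0 of 990 with no merging and none of 156 by limma.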
